A study of Mus musculus with 17 samples.

Results

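The 10 genes described here form the core of the circadian clock and its nearest outputs. They are Arntl (also named Bmal1), Clock, Per2, Per3, Cry1, Cry2, Nr1d1, Nr1d2, Dbp and Tef. They were taken by name, each as 1 of the 31647 features of a table of counts per gene, and all 10 had a feature. Transcripts had been counted by massive analysis of cDNA ends (MACE), a method that sequences the 3' end of polyadenylated RNA and tags each molecule so that PCR copies can be removed. The 17 heart libraries came from wild-type male C57BL/6J mice that were 8 to 11 weeks old and received isoflurane and buprenorphine. For 9 libraries a permanent ligature had closed the left anterior descending coronary artery, and RNA was taken from the dissected infarct zone after 5 days. The other 8 came from left ventricular tissue, also taken 5 days after surgery, of mice operated in the same way without ligation (sham). By the study's account each library came from a separate mouse. Neither the labels nor the methods state the time of day at which tissue was taken.

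In the clock, ARNTL and CLOCK bind DNA as a pair and switch on the Per, Cry and Nr1d genes as well as Dbp and Tef. PER and CRY proteins return to the nucleus and block that pair, while the REV-ERB receptors encoded by Nr1d1 and Nr1d2 repress Arntl and compete with the ROR receptors for the same sites. DBP and TEF are transcription factors that pass the rhythm on to other genes, and the transcripts of this loop peak at different times of day in heart as in other tissues.

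The promoters of the members were searched for the letters that factors of this loop are known to bind. RefSeq promoter sequences on GRCm38.p6 (250 bases before to 50 bases after each transcript start) were matched by symbol for 9 of the 10 members. Per2 was the exception. Both strands were searched for the E-box CACGTG and its variant CACGTT (letters bound by ARNTL and CLOCK), the D-box TTATGTAA or TTACGTAA (bound by DBP and TEF) and the ROR element TAGGTCA (shared by REV-ERB and ROR receptors). The following stretches hold the matches, printed 5′ to 3′ on the strand of the gene with the matched letters in capitals, to show which members carry which element. AACGTG is CACGTT read on the other strand.
Per3, chr4:151044796-151044890, minus strand: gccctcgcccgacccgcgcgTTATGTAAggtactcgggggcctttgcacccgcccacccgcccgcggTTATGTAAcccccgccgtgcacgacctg
Cry1, chr10:85185089-85185153, minus strand: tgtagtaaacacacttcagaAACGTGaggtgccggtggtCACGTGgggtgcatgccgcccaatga
Cry2, chr2:92434210-92434255, minus strand: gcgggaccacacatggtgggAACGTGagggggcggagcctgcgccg
Nr1d1, chr11:98775380-98775425, minus strand: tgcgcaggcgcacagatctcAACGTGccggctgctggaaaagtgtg
Tef, second start, chr15:81811256-81811301, plus strand: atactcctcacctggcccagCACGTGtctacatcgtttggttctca
Arntl, second start, chr7:113207532-113207556, plus strand: ggcagaaagTAGGTCAgggacggag

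Among all 32851 promoters of this length, 7.15% held CACGTG, 4.68% held CACGTT, 1.06% held a D-box of either spelling and 2.61% held TAGGTCA. The Per3 promoter held 2 D-boxes, which began 205 and 158 bases before the start, and 8 of the 32851 promoters (0.0244%) held 2 or more. An E-box lay 60 bases before the start in Cry1, with the variant further upstream, and both promoters of Tef held an E-box. In Arntl the ROR element began 30 bases after the second of its 2 starts. None of these letters was found in the windows of Clock, Nr1d2 or Dbp, which says nothing about sites outside them.

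Total counts per library ran from 1820809 to 4257919 in sham and from 1237675 to 4738307 in the infarct zone. Of the cardiomyocyte markers, 8 of 8 fell (median log2 fold change -3.72), and their summed level went from between 57991 and 72070 CPM (counts scaled to a common library size) in sham to between 1935 and 4691 CPM in 8 infarct zones. Infarct zone replicate 1 stood apart, with 22204 CPM of these markers and 19.5% of its counts from mitochondrially encoded genes, against 4.22% to 6.78% in the other 8 infarct zones. In the same tissue 4 of 5 fibroblast markers, 5 of 5 tested leukocyte markers and 3 of 3 markers of dividing cells rose. Of the endothelial markers 2 of 4 fell, of the mural cell markers 2 of 3 fell and 1 rose, and of the atrial markers both that could be tested fell, from a summed 14.9 to 442 CPM in sham. Lymphocyte and adipocyte markers were too low to test. The part of this change in cell makeup in the results for the clock genes was not tested, and in bulk tissue fewer cells of a type and less RNA per cell cannot be told apart.

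The first comparison asked which clock transcripts were changed in infarcted compared with sham operated myocardium. At an edgeR adjusted p under 0.05, 6 of the 10 members fell and 0 rose, whereas with libraries scaled by total counts alone 2 fell and 3 rose. Across all 12301 genes tested, 33.1% were called lower and 36.3% higher, and 16.5% lay lower and 16.6% higher in the infarct zone with no overlap between the groups. With total counts alone 1534 of these genes were called lower and 9176 higher. Cry2, Nr1d2 and Dbp did not overlap, 3 of 10 members. The median log2 fold change was -0.99 over the members and 0.05 over all genes tested. With total counts alone the median over all genes moved to 1.13. Relative to the median of all genes the members had close values under both scalings, for example -0.89 and -0.89 for Per3 and -1.19 and -1.20 for Nr1d2. A change of scaling moves all genes by nearly the same amount, which subtracting the median removes. The closeness therefore cannot tell which scaling holds. All 10 members passed the filter on low counts. Unless stated otherwise, the levels, overlaps and fold changes below are on TMM-scaled libraries.

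**Figure D1:**
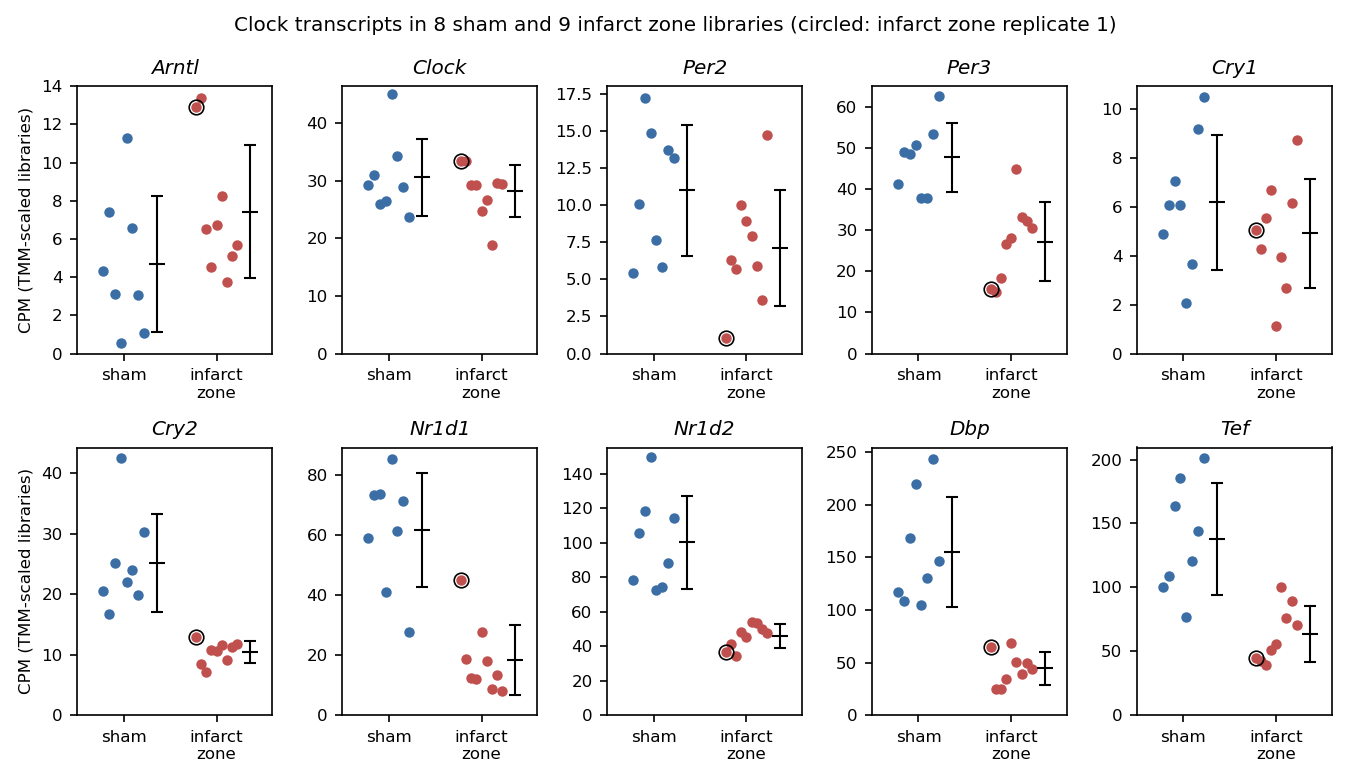
CPM of each member (vertical axis, from 0, TMM-scaled libraries) in the 8 sham libraries (blue) and the 9 infarct zone libraries (red), with the mean and SD of each group in black and infarct zone replicate 1 circled. The groups of Cry2, Nr1d2 and Dbp did not overlap, and in Nr1d1 the circled library at 44.9 CPM lay inside the sham range.

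Levels of different genes are set side by side here because 3' counting reads each transcript near 1 end, whatever its length. Other differences between genes remain, such as the bases shared with other genes described below, so the order is approximate. In sham the order of mean CPM was Dbp, Tef, Nr1d2, Nr1d1, Per3, Clock, Cry2, Per2, Cry1 and Arntl. The order in the infarct zone was Tef, Nr1d2, Dbp, Clock, Per3, Nr1d1, Cry2, Arntl, Per2 and Cry1. In both groups the ranges of all neighbours in these orders overlapped. Within libraries, Tef lay above Nr1d2 in 8 of 8 sham libraries and 9 of 9 infarct zones, and Cry2 above Per2 and Per2 above Cry1 in 8 of 8 sham libraries. The other neighbours changed places in at least 1 library.

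Of the activating pair neither gene passed the test on TMM-scaled libraries, whereas both were called higher with total counts alone. Arntl (ENSMUSG00000055116, chr7:113207465-113314126) had 0.552 CPM in the lowest, 3.74 in the median and 11.3 in the highest sham library, against 3.76, 6.53 and 13.4 CPM in the infarct zone. These levels rest on 1 to 22 counts per sham library and 7 to 97 per infarct zone library. Infarct zone replicates 1 and 2 lay above every sham library and the rest overlapped. The log2 fold change of Arntl was 0.72 ± 0.38 (SE, 95% interval -0.10 to 1.54, edgeR adjusted p = 0.0998). Without sham replicate 5, the highest sham library, it was 1.07 and passed the threshold (edgeR adjusted p = 0.0188). With total counts alone Arntl read 1.78 and passed as well (edgeR adjusted p = 7.03e-05). Clock (ENSMUSG00000029238, chr5:76209868-76304792) ran from 23.7 through a median of 29.1 to 45.1 CPM in sham and from 18.8 through 29.2 to 33.5 CPM in the infarct zone, and the groups overlapped nearly throughout. Its log2 fold change was -0.10 ± 0.14 (SE, 95% interval -0.39 to 0.19, edgeR adjusted p = 0.518). A change of 1 on the log2 scale lay outside that interval, which holds for TMM scaling only. With total counts alone Clock read 0.97 and passed the threshold (edgeR adjusted p = 5.25e-07).

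Among the repressors of that pair, Per3 and Cry2 fell while Per2 and Cry1 did not pass the test. Per3 (ENSMUSG00000028957, chr4:151003652-151044665) had 37.9 CPM in the lowest, 48.9 in the median and 62.7 in the highest sham library, against 15.02, 28.1 and 44.97 CPM in the infarct zone. Of the 9 infarct zones 8 lay below every sham library, and replicate 6 was the exception. Per3 fell by 0.84 ± 0.19 on the log2 scale (SE, edgeR adjusted p = 3.76e-04), and with total counts alone its value was 0.25. Cry2 (ENSMUSG00000068742, chr2:92403646-92434043) ran from 16.8 through a median of 23.0 to 42.5 CPM in sham and from 7.18 through 10.8 to 12.9 CPM in the infarct zone. All 9 infarct zones lay below all 8 sham libraries, with sham replicate 4 highest. Cry2 fell by 1.29 ± 0.18 on the log2 scale (SE, edgeR adjusted p = 7.86e-07), and with total counts alone the value was -0.23 and did not pass the threshold.

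Per2 (ENSMUSG00000055866, chr1:91415982-91459324) ran from 5.42 through a median of 11.6 to 17.3 CPM in sham and from 1.08 through 6.34 to 14.7 CPM in the infarct zone, on 3 to 51 counts per library over both groups. The groups overlapped, with infarct zone replicate 1 lowest and replicate 9 highest of their group. The log2 fold change of Per2 was -0.61 ± 0.32 (SE, 95% interval -1.29 to 0.07, edgeR adjusted p = 0.0931). Without infarct zone replicate 9 it was -0.79 and passed the threshold (edgeR adjusted p = 0.0293). Cry1 (ENSMUSG00000020038, chr10:85131700-85185064) had 2.05 CPM in the lowest, 6.06 in the median and 10.5 in the highest sham library, and 1.12, 5.03 and 8.70 CPM in the infarct zone. Its log2 fold change was -0.30 ± 0.31 (SE, 95% interval -0.95 to 0.35, edgeR adjusted p = 0.391). Cry1 had 2 to 34 counts per library. With total counts alone Per2 read 0.48 and Cry1 0.77.

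Both REV-ERB genes fell. Nr1d1 (ENSMUSG00000020889, chr11:98767932-98775333) ran from 27.5 through a median of 66.3 to 85.1 CPM in sham and from 8.03 through 13.3 to 44.9 CPM in the infarct zone. All infarct zones but replicate 1 lay below every sham library, and replicate 5, next to the lowest sham library, had 27.5 CPM as well. Nr1d1 fell by 1.77 ± 0.28 on the log2 scale (SE, edgeR adjusted p = 5.74e-06), and the value was -2.10 without replicate 1 and -0.74 with total counts alone. Nr1d2 (ENSMUSG00000021775, chr14:18204054-18239127) had 72.8 CPM in the lowest, 96.8 in the median and 150 in the highest sham library, against 34.3, 47.5 and 54.3 CPM in the infarct zone, with no overlap. It fell by 1.14 ± 0.14 on the log2 scale (SE, edgeR adjusted p = 2.39e-07), and with total counts alone the value was -0.06 and did not pass the threshold.

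The output factors Dbp and Tef fell as well. Dbp (ENSMUSG00000059824, chr7:45705088-45710203) was the most abundant member in sham, from 105 through a median of 139 to 244 CPM, and ran from 24.7 through 43.8 to 68.4 CPM in the infarct zone. The highest infarct zone, replicate 5, stayed below the lowest sham library, replicate 5 of its group. Dbp fell by 1.83 ± 0.21 on the log2 scale (SE, edgeR adjusted p = 8.27e-08), which is 3.55-fold, and the value was -0.78 with total counts alone. Tef (ENSMUSG00000022389, chr15:81802421-81826863) ran from 76.4 through a median of 132 to 201 CPM in sham and from 39.2 through 55.5 to 100 CPM in the infarct zone, where 7 of 9 libraries lay below every sham library. Replicates 6 and 8 were the ones that overlapped. Tef fell by 1.13 ± 0.21 on the log2 scale (SE, edgeR adjusted p = 3.77e-05), and with total counts alone the value was -0.06 and did not pass the threshold.

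Some members share bases with other genes, and the sources do not state whether strand was used in counting. The last 500 bases of a Dbp transcript lie within a Sphk2 transcript on the opposite strand, and Sphk2 rose by 0.65 on the log2 scale (edgeR adjusted p = 0.00320), with 711 counts in all against 3530 for Dbp. The end of Nr1d1 overlaps Thra over 269 bases on the opposite strand, and Thra fell by 1.19 (edgeR adjusted p = 4.41e-06). Per3 overlaps the bounds of Camta1 on the same strand, and Camta1 fell by 2.07 (edgeR adjusted p = 1.07e-07). The 3' end of Nr1d2 matches the annotated locus AC170187.1 at 96.0% over 501 bases. The counts of these 4 members are uncertain to that extent.

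**Figure D2:**
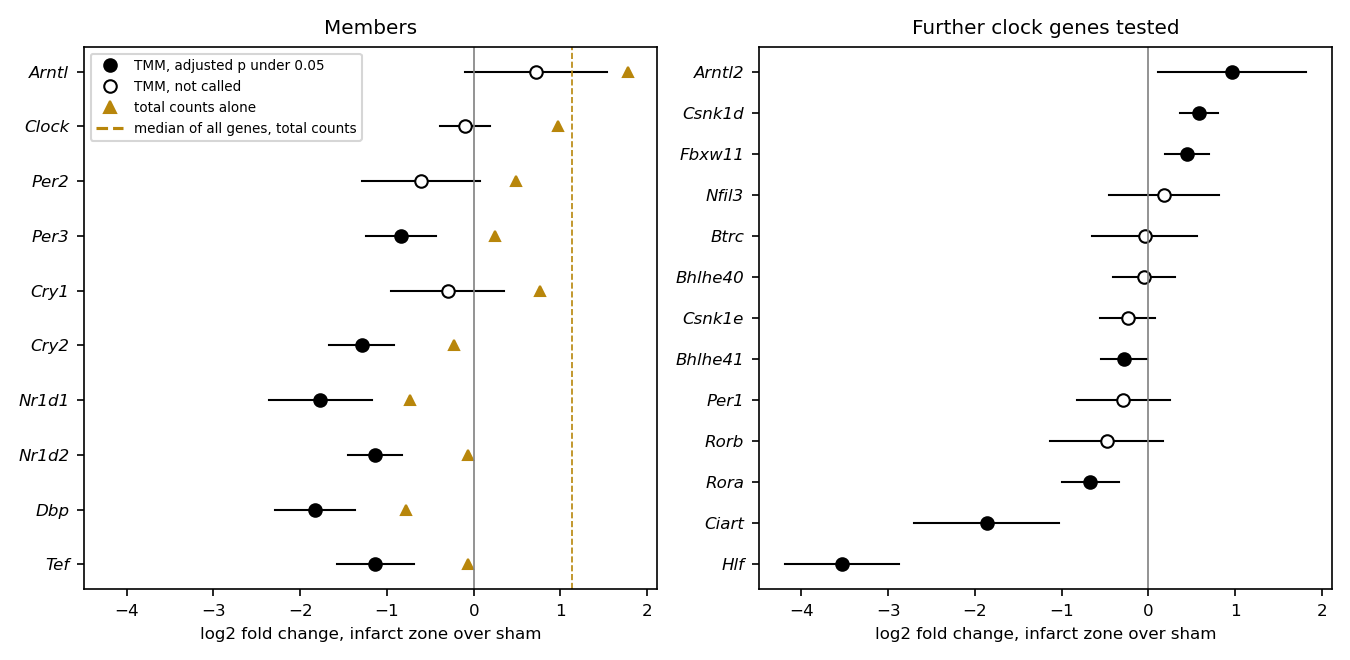
Log2 fold change of the infarct zone over sham for the members (left) and the 13 tested further clock genes (right), with 95% intervals. Filled circles passed an edgeR adjusted p under 0.05 with TMM scaling, triangles give the members with total counts alone and the dashed line the median of all genes there (1.13). Of the members 6 lay below 0 past the threshold with TMM, and with total counts alone Per3 turned to 0.25.

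The rest of the clock machinery was described by a list of 15 further genes, of which 13 were expressed enough to test. Of these, 4 fell, 3 rose and 6 did not pass the test (median log2 fold change -0.24), and with total counts alone 1 fell and 10 rose. Over all 12301 genes tested 33.1% fell and 36.3% rose, and with total counts alone 1534 fell and 9176 rose. Hlf, the relative of Dbp and Tef, fell furthest. Its sham libraries ran from 17.9 through 28.6 to 49.2 CPM and its infarct zones from 0 through 2.51 to 4.604 CPM, which did not overlap. Hlf fell by 3.53 ± 0.31 on the log2 scale (SE, edgeR adjusted p = 8.50e-10). The ROR receptors act on the same DNA element as the REV-ERB proteins. Of these, Rora fell by 0.67 ± 0.15 (SE, edgeR adjusted p = 5.13e-04) but read 0.40 with total counts alone. Rorb did not pass the test, at -0.48 ± 0.30 (SE, edgeR adjusted p = 0.161).

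Ciart, a repressor of the ARNTL and CLOCK pair, fell by 1.87 ± 0.39 on the log2 scale (SE, edgeR adjusted p = 1.88e-04), and with total counts alone its value was -0.80 and did not pass the threshold. The fall of Bhlhe41 by 0.28 (edgeR adjusted p = 0.0481) was marginal, read 0.80 with total counts alone, and was lost on omission of a single library, whether 1, 2, 3 or 7 of the sham group or 2, 3, 4, 7, 8 or 9 of the infarct zone. Csnk1d, a kinase that acts on PER proteins, rose by 0.59 ± 0.10 (SE, edgeR adjusted p = 2.52e-05), with all 9 infarct zones above all sham libraries. Fbxw11, part of the machinery that degrades PER proteins, rose by 0.44 ± 0.12 (SE, edgeR adjusted p = 0.00194). Arntl2, the paralogue of Arntl, had the highest value of the list, 0.96 ± 0.40 (SE, edgeR adjusted p = 0.0362). That call was lost without library 3, 5, 6 or 7 of sham or 8 of the infarct zone, where its value ran from 0.79 to 0.92. Without infarct zone replicate 2, 3 or 4 Arntl2 was not among the genes called higher either. Arntl2 had 0 to 9 counts per sham library and 6 to 49 per infarct zone library. Per1 (-0.29), Csnk1e (-0.24) and Nfil3 (0.18), the last a factor that competes with DBP, did not pass the test, and with total counts alone they read 0.79, 0.83 and 1.23.

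Among 10 genes known as clock outputs in heart or other tissues 9 were tested. Of these 4 fell and 3 rose, beside 33.1% and 36.3% of all genes tested. Kcnip2, a subunit of the transient outward potassium channel, had the lowest value. It ran from 52.5 through 91.9 to 148 CPM in sham and from 0.561 through 1.08 to 38.0 CPM in the infarct zone, where replicate 1 held the highest level. Kcnip2 fell by 4.35 ± 0.58 on the log2 scale (SE, edgeR adjusted p = 6.12e-07), and its value was -6.50 without that library. Fkbp5, which also answers to glucocorticoids, had the highest value and rose by 1.83 ± 0.26 (SE, edgeR adjusted p = 1.66e-06), from a median of 15.5 to one of 51.2 CPM, with 8 of 9 infarct zones above every sham library. Klf15 and Usp2, which were named after their values were seen, had log2 fold changes of -3.90 and -2.95 (edgeR adjusted p = 1.26e-09 and 4.93e-09).

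The second question was how the members varied together from library to library within each group. Pearson's r of log2 CPM was computed for all 45 pairs in each group, with exact two-sided permutation of the pairings (40320 in sham and 362880 in the infarct zone) and adjustment over the 90 relations. In sham 4 pairs passed an adjusted p under 0.05, with 18 at an unadjusted p under 0.05. In the infarct zone 3 pairs passed, with 6 at an unadjusted p under 0.05. By Spearman's rho no pair passed in either group after adjustment. Leaving out any 1 of the 8 sham libraries left 0 or 1 pair called in sham. Leaving out infarct zone replicate 6 or 9 left 0 pairs called there, and leaving out replicate 7 or 8 left 1.

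**Figure D3:**
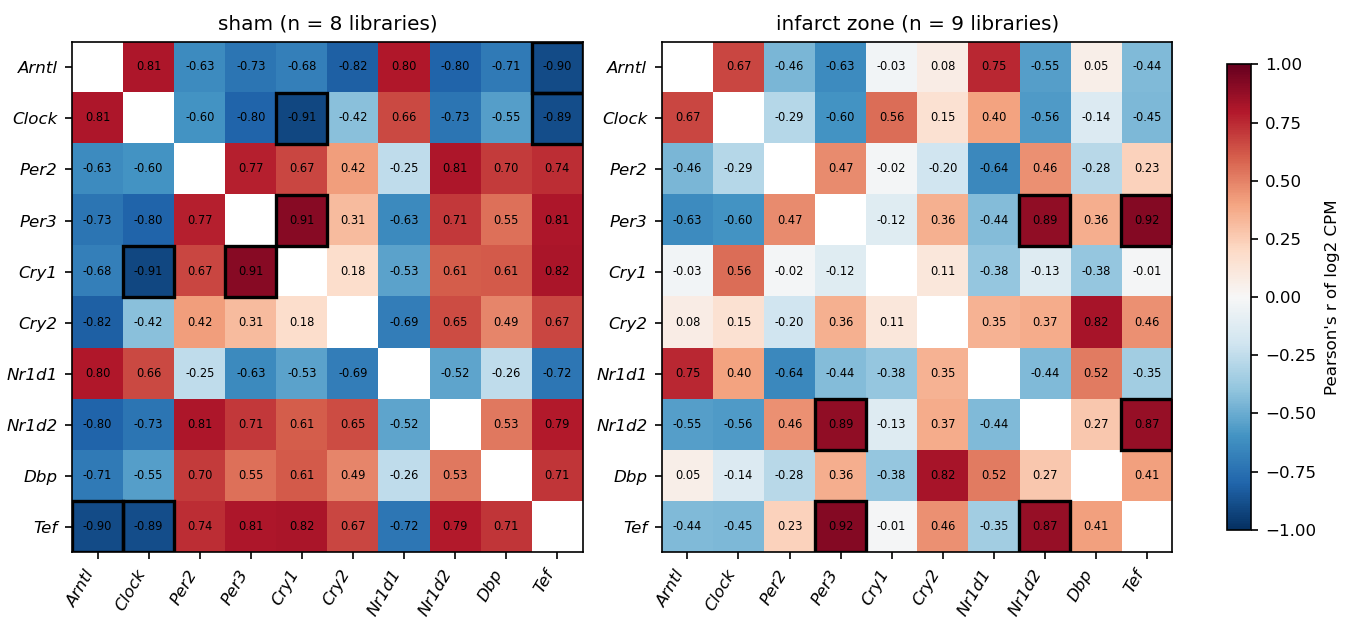
Pearson's r of log2 CPM for every pair of members over the 8 sham libraries (left) and the 9 infarct zone libraries (right), from -1 (blue) to 1 (red), with pairs that passed an adjusted exact permutation p of 0.05 framed. In sham the row and column of Arntl, Clock and Nr1d1 are blue against all other members, and in the infarct zone 6 of those 21 pairs are positive.

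In sham the signs fell into a regular arrangement. Arntl, Clock and Nr1d1 were positively correlated with each other in 3 of 3 pairs (r from 0.66 to 0.81). The other 7 members, Per2, Per3, Cry1, Cry2, Nr1d2, Dbp and Tef, were positively correlated with each other in 21 of 21 pairs (r from 0.18 to 0.91). Between the 2 sets 21 of 21 pairs were negative (r from -0.91 to -0.25). The same counts were obtained with total count CPM, DESeq2 size factors and a prior count of 5, and by Spearman's rho 1 of the 21 pairs between the sets was positive. The sets were read from these values, so the counts carry no test, and all pairs share the same 8 libraries. The same sets gave in the infarct zone 3 of 3 positive pairs in the first, 14 of 21 in the second and 15 of 21 negative pairs between them. Total count CPM moved these to 3 of 3, 18 of 21 and 18 of 21. Whether the arrangement differed between the groups was not tested.

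Arntl and Tef moved in opposite directions over the sham libraries. Sham replicates 4 and 8 had the lowest Arntl, at 0.552 and 1.10 CPM, and the highest Tef, at 186 and 201 CPM. Replicate 5 had the highest Arntl, at 11.3 CPM, and the lowest Tef, at 76.4 CPM. The Arntl levels of replicates 4 and 8 rest on 1 and 2 counts, which limits this correlation. Pearson's r was -0.90 and Spearman's rho -0.88 (n = 8, exact permutation p = 0.00265 and 0.00724, adjusted 0.0341 and 0.0931). Without the 2 libraries farthest from the median of Arntl, replicates 4 and 5, r was -0.87 (exact permutation p = 0.025), with replicate 8 kept. Tef ranked 8th lowest of 6733 genes with a mean of at least 50 counts in its correlation with Arntl in sham. In the infarct zone r of the same pair was -0.44, and 0.050 without the 2 libraries farthest from the median of Arntl.

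**Figure D4:**
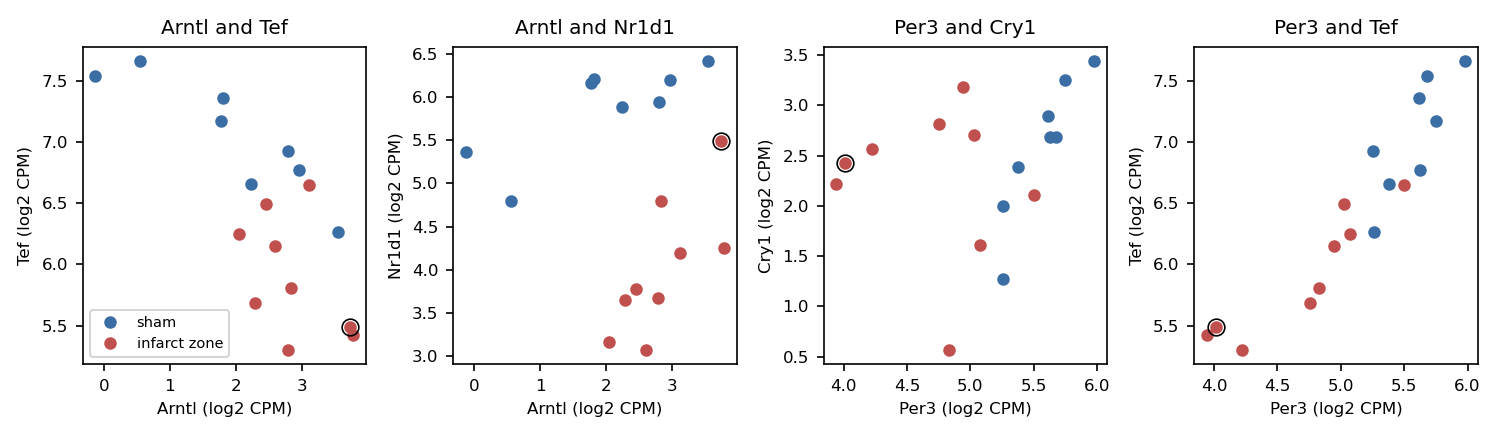
Log2 CPM of 4 pairs of members, 1 point per library, in sham (blue) and the infarct zone (red), with infarct zone replicate 1 circled. Arntl and Tef ran in opposite directions in sham (r = -0.90), and Per3 and Tef ran in the same direction in the infarct zone (r = 0.92).

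Clock was negatively correlated in sham with Cry1 (r = -0.91, rho = -0.90) and with Tef (r = -0.89, rho = -0.88), with exact permutation p of 0.00260 and 0.00226 for r and 0.00456 and 0.00724 for rho. Without the 2 libraries farthest from the median of Clock r was -0.64 and -0.69 (unadjusted exact permutation p = 0.163 and 0.128), so the signs stayed but neither passed. Fewer libraries also give the test less power, so whether both calls rest on those 2 libraries cannot be told. Per3 and Cry1 were positively correlated in sham (r = 0.91, rho = 0.90, exact permutation p = 0.00107 and 0.00456), and r was 0.92 without the 2 farthest libraries. Arntl and Nr1d1 had r = 0.80 in sham and 0.75 in the infarct zone (exact permutation p = 0.0175 and 0.0192), and neither passed after adjustment (0.105 and 0.106). Spearman's rho was 0.71 and 0.78, and without the 2 libraries farthest from the median of Arntl r was 0.76 and 0.63 (exact permutation p = 0.118 and 0.122). Arntl and Dbp had r = -0.71 and rho = -0.86 in sham, against 0.05 and 0.22 in the infarct zone, and neither group passed. Without the 2 libraries farthest from the median of Arntl the sham value was -0.45, and without infarct zone replicate 1 the other was -0.26.

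In the infarct zone Per3, Nr1d2 and Tef varied together. Infarct zone replicates 1, 2 and 3 had the lowest Per3, between 15.02 and 18.3 CPM, the lowest Nr1d2, between 34.3 and 41.4 CPM, and the lowest Tef, between 39.2 and 44.5 CPM. Replicate 6 had the highest level of all 3 genes, at 44.97, 54.3 and 100 CPM. Pearson's r was 0.92 for Per3 and Tef, 0.89 for Per3 and Nr1d2, and 0.87 for Nr1d2 and Tef (n = 9, exact permutation p = 4.24e-04, 0.00193 and 0.00207, each 0.0341 after adjustment). Spearman's rho was 0.93, 0.88 and 0.92 (exact permutation p = 7.50e-04, 0.00308 and 0.00131, adjusted 0.0590, 0.0821 and 0.0590). Without the 2 libraries farthest from the median of the first gene r was 0.94, 0.92 and 0.86. Without infarct zone replicate 1 the adjusted exact permutation p was 0.0398, 0.0998 and 0.0398. In sham the same pairs had r of 0.81, 0.71 and 0.79, none of which passed after adjustment.

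Library measures moved with some of these levels. In the infarct zone the log2 total count had r of -0.72 with Per3, -0.73 with Tef, -0.71 with Dbp, 0.69 with Clock and -0.65 with Nr1d2, the last with an exact permutation p of 0.0640, and the mean log2 CPM of the cardiomyocyte markers had r of 0.71 with Nr1d1 and 0.69 with Dbp. The corresponding rho was -0.78, -0.77, -0.62, 0.67, -0.63, 0.43 and 0.80. Per3, Nr1d2 and Tef, the 3 genes that varied together there, were thus all negatively correlated with the total count. The mitochondrial share had r of 0.76 with Clock and with Nr1d1 in sham (rho = 0.74 and 0.64) and 0.73 with Nr1d1 in the infarct zone (rho = 0.33). Of the 60 relations between a member and the total count, the mitochondrial share or the cardiomyocyte markers, 0 passed after adjustment (lowest adjusted exact permutation p = 0.263), while 2 in sham and 7 in the infarct zone had an unadjusted p under 0.05. Without sham replicate 7, 1 relation passed. The part of depth and of cardiomyocyte transcripts in the covariation of the members was not tested.

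The genes most like Arntl and Dbp were listed over the same libraries, as a description. In sham the 3 highest r with Arntl among 6733 genes were those of Deptor (0.94), Ptpre (0.93) and Fem1b (0.92), and the 3 lowest those of Marc2 (-0.95), Me3 (-0.93) and Cd63 (-0.91). Over the infarct zones they were Dcun1d2 (0.92), Prnp (0.90) and Ssbp2 (0.89), with Slirp (-0.89), Rpsa (-0.86) and Gm16585 (-0.86) at the other end. For Dbp the highest in sham among 6732 genes were Pik3ip1 (0.91), Erp44 (0.87) and Gm37108 (0.87), and the lowest Rsrc2 (-0.96), Rbm6 (-0.95) and Relb (-0.93). Over the infarct zones the highest were Rnf187 (0.96), Use1 (0.94) and Pex6 (0.94), and the lowest Creb3l1 (-0.97), Wdr61 (-0.91) and Ids (-0.89). No gene was named for the same member in both groups. Of the members with at least that mean count, Clock ranked 52nd and Nr1d1 63rd from the top with Arntl in sham, and Nr1d1 49th from the top in the infarct zone.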

How the data were processed

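Total RNA was extracted with DNase treatment, and MACE libraries with molecular identifiers were sequenced by the authors. Per the methods and labels, reads were trimmed with Cutadapt, mapped to mm10 and counted with HTSeq. The submitters' processing notes also name bcl2fastq, Bowtie2 and DESeq2 without giving their roles. The deposited values are raw counts per gene, without normalization. The annotation release, strand setting and handling of reads with several locations are not given in the sources used here. All 17 columns were used. Of 31647 features, 31554 were matched to GENCODE vM21, and 35 were merged groups of overlapping genes.

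Genes passed filterByExpr (minimum 10 counts) and were tested with the two-sided quasi-likelihood F-test of edgeR 4.0.16 in R 4.3.3 on TMM-scaled libraries, without covariates, with Benjamini-Hochberg adjustment over 12301 genes and a threshold of 0.05. Standard errors came from the F statistic and 95% intervals from 15 degrees of freedom. CPM used TMM-scaled library sizes, and log2 CPM a prior count of 1. Correlations used Python 3.11.15, NumPy 2.4.6 and SciPy 1.17.1. The last 500 bases of each member transcript were searched against all transcripts with BLAST 2.17.0 (matches over 100 bases or more, identity 95% or more). The procedures were tested on simulated data. For the fold changes few genes were changed there, as many up as down, so the choice of scaling was not tested. Chi-square per degree of freedom between libraries was 2.41 to 252, above sampling noise, so none was a copy. The labels gave no batch, so nothing could be repeated within batches. Counts limit precision, and low members such as Arntl rest on few molecules per library.

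The members, gene lists, search motifs and sets were chosen with earlier results of these data known. All members were named. The rule also allowed any gene of the further clock list, the highest and the lowest tested gene of each other list (marker lists are given by counts and sums alone), and the 3 highest and 3 lowest of the genes most like Arntl and Dbp. Klf15 and Usp2 fell outside it. Some further clock genes were removed from that list, are not in its counts and are not reported here. Other settings tried for the fold changes were scaling by total counts alone, by upper quartile or by the size factors of DESeq2, the Wald test of DESeq2 1.42.0, all genes without a filter or those with a mean of 50 counts or more, libraries thinned to equal totals, a table without mitochondrial genes, a block for replicate number, and each library omitted. The correlations were repeated by rank, with CPM from total counts or size factors, with a prior count of 5, and with 1 library or the 2 farthest omitted.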

Additional observations from a re-analysis of the deposited data

Results flagged for a closer look

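Infarct zone replicate 1 had 19.5% of its counts from mitochondrially encoded genes, and its gap to the nearest infarct zone library was 0.832 of the range of the group, above Dixon's limit of 0.493 for 9 samples. None of the members had a library beyond the limit in either group. With 22 groups of values checked, chance flags about 1 in 20. The log2 fold changes of the called members without this library were -0.82 for Per3, -1.37 for Cry2, -2.10 for Nr1d1, -1.14 for Nr1d2, -1.98 for Dbp and -1.13 for Tef, all past the threshold in edgeR.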

How the results depend on the processing

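Of 254 values of the members under 26 alternatives, 240 kept their direction and their side of the threshold. Total counts alone gave 2 members lower and 3 higher, 1 further clock gene lower and 10 higher, and values of 0.97 for Clock, 0.48 for Per2, 0.25 for Per3, 0.77 for Cry1, 0.79 for Per1, 0.40 for Rora, 0.80 for Bhlhe41 and 0.83 for Csnk1e, as the median of all genes was 1.13 there. Clock read 0.010 with upper quartile scaling and 0.024 after thinning. A minimum mean of 50 counts, which tests fewer genes, left 1 further clock gene lower. Leaving out single libraries gave 0 to 1 members higher, 0 to 1 pairs in sham, 0 to 3 pairs in the infarct zone and 0 to 1 relations with library measures. Spearman's rho gave 0 pairs in either group, and total count CPM 2 pairs in sham and 1 relation with library measures. Arntl and Dbp in the infarct zone had r of -0.22 with total count CPM, -0.26 without replicate 1 and -0.02 without replicate 4, and omitting single libraries gave -0.26 to 0.51. Without the 2 farthest libraries Arntl and Tef had 0.050 and Clock and Cry1 -0.10 there. The cause of the other changes was not tested. Same-numbered samples share only a number (correlation of deviations -0.22 to 0.13, and only replicate 8 matched its own number best). With the replicate block 7 members were lower, Per2 included (-0.85), and 1 higher, Arntl (0.85), and 3798 genes were lower and 4086 higher in all. Of the members, Arntl, Cry1 and Per2 had the fewest counts per library, which limits their precision most.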

Other observations

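Ratios between members within a library depend little on how libraries are scaled. The difference of log2 CPM between Arntl and Nr1d1 was -3.93 ± 0.87 (SD, n = 8) in sham and -1.16 ± 0.51 (SD, n = 9) in the infarct zone, where all 9 libraries lay above every sham library. For Arntl and Dbp it went from -5.27 ± 1.59 to -2.55 ± 0.78 (SD), with 7 of 9 infarct zones above every sham library, and for Arntl and Clock from -2.98 ± 1.02 to -1.98 ± 0.47 (SD), with 4 of 9 above. Dbp and Tef, the pair of related output factors, went from 0.17 ± 0.35 to -0.52 ± 0.55 (SD), with 7 of 9 infarct zones below every sham library and replicate 1 at 0.54. Of the infarct zones 5 of 9 lay above every sham library in the difference between Cry1 and Cry2. For Per2 and Per3 3 lay above and 2 below, and for Nr1d1 and Nr1d2 1 above and 2 below. These are descriptions without a test, and the low counts of Arntl in sham enter its ratios. Only these pairs were formed. How often ratios of other genes separate the groups was not examined.

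The spread of the members over libraries differed between the groups in both directions. The SD of log2 CPM was 1.23 in sham and 0.60 in the infarct zone for Arntl, 0.41 and 0.26 for Cry2, and 0.37 and 0.23 for Nr1d2. It was 0.25 and 0.53 for Per3, 0.61 and 0.97 for Per2, and 0.54 and 0.78 for Nr1d1. Without infarct zone replicate 1 the infarct zone values were 0.49 for Per3, 0.58 for Per2 and 0.58 for Nr1d1, of which the last pair lay close to sham. Arntl had 1 to 22 counts per sham library and 7 to 97 per infarct zone library, and the part of counting noise in its spread was not tested. The differences in spread were not tested either.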
